A study of Mus musculus with 14 samples.

Results

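Lepr-high cells were 3 single cells, picked from the bones of adult mice, in which Lepr, the gene of the leptin receptor, stood at 5 or more on the log2 scale of the deposited table. They were taken from 14 cells in all. Cells with Ifitm5 at 8.5 or more were first left out, which removed 3 cells, and the 11 that remained were divided into the 3 Lepr-high cells (cells 2, 7 and 9) and 8 Lepr-low cells (cells 1, 3, 4, 5, 8, 11, 12 and 14). Ifitm5 codes for a membrane protein made mainly by bone-forming osteoblasts. All 14 cells came from Prrx1-CreERT;Tomato animals on a C57BL/6 background that had received tamoxifen at 2 mg per 30 g of body weight once a day for 3 days, and no untreated or otherwise distinct group was compared. The labels call the animals adult and name none of them, so the cells count as 1 sample and every value below describes these cells, with no test between them.

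The mouse line limits what a cell can stand for. Cre recombinase activity follows the Prrx1 promoter, which is active in limb and skeletal mesenchyme, and the Tomato label marks any cell that used the promoter around the injections, or its progeny. Tibiae, radii and ulnae were flushed of marrow before digestion, so the cells were those that stayed with the bone. The leptin receptor is a cytokine receptor that signals through Janus kinases and Stat proteins, with Socs proteins acting as feedback inhibitors. In marrow, cells that carry it form a perivascular network known for making Cxcl12, a chemokine that holds blood-forming cells in place, and other niche factors such as Kitl, and they can give rise to fat and bone cells.

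Lepr itself, which chose the cells, stood at 10.56, 9.97 and 6.12 in cells 2, 7 and 9. Among the Lepr-low cells it ran from 0.55 in cell 12 through a median of 1.87 to 3.85 in cell 1, so the values just inside and just outside the threshold were 6.12 and 3.85. The Lepr gene lies on chromosome 4 at 101717404-101815352 on the plus strand (GRCm38). Among the cells left out, cell 6 had Ifitm5 at 11.72 and Lepr at 6.37, cell 13 had 10.60 and 2.55, and cell 10, just inside the Ifitm5 limit at 9.0, had Lepr at 4.04. The highest Ifitm5 among the 11 cells kept was 3.76, in cell 2.

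**Figure D1:**
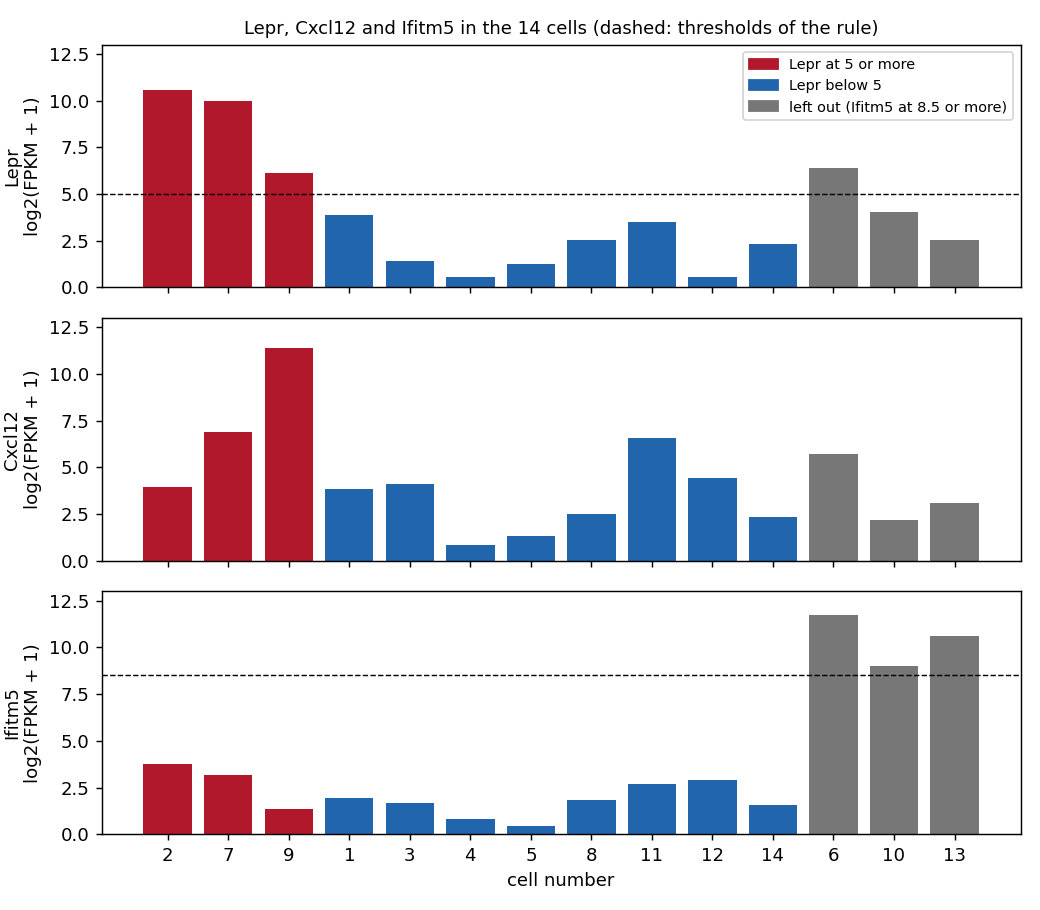
Level of Lepr, Cxcl12 and Ifitm5 in each of the 14 cells, on the log2 scale of the deposited table (y axis), with cells on the x axis and the thresholds of the rule as dashed lines. The 3 Lepr-high cells sit at 6.12 to 10.56 for Lepr, and their Cxcl12 bars run from 3.97 to 11.38, with the lowest inside the range of the Lepr-low cells.

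Cxcl12, which was to mark the same cells, did not follow Lepr cell by cell. Levels of 3.97, 6.87 and 11.38 were found in cells 2, 7 and 9, so the cell with the most Lepr had the least Cxcl12 of the 3. In the Lepr-low cells Cxcl12 ran from 0.84 in cell 4 through a median of 3.18 to 6.56 in cell 11, and cells 3, 11 and 12 all lay above cell 2. The median was higher by 3.70 in the Lepr-high cells, but the groups overlapped, and the difference was 2.24 without cell 9 and 5.95 without cell 2. The cells are therefore called here by their Lepr level and not by a reticular cell name.

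Values are log2(FPKM + 1) as read from the table, where FPKM is a fragment count scaled to transcript length and to all mapped fragments, and the columns share 1 distribution. Each of the 14 cells had 5058 to 5062 of 9542 gene symbols at 1 or more, and 7294 to 8017 above 0. Depth is unknown because no counts were used here. By which genes stood at 0, the cells fell into a larger and a smaller set of columns, and all 3 Lepr-high cells were in the larger set together with Lepr-low cells 1, 5, 8 and 14. Blood cell genes were highest in Lepr-low cells 11 and 14, whose mean over 10 genes shared by blood cells was 8.77 and 9.68, against 2.80 to 5.18 in the Lepr-high cells. Among these genes Ptprc, the leukocyte antigen CD45, stood at 0.05 to 0.80 in the Lepr-high cells. Tyrobp, another of the 10, was at 5.99, 9.09 and 6.90 in cells 2, 7 and 9, within a Lepr-low range of 2.05 to 12.65. The median difference over this list was -0.15, and it ran from -0.60 to 0.77 over the cells left out in turn. The part of blood cell transcripts in the differences below was not tested, and counts without cells 11 and 14 are given.

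A gene was called set apart when all 3 Lepr-high cells lay on the same side of all 8 Lepr-low cells and the medians of the groups differed by at least 2 log2 units. Of 7258 genes at 1 or more in at least 3 of the 11 cells, Lepr not counted, 38 (0.524%) were set apart higher and 25 (0.344%) lower in the Lepr-high cells. The largest differences among the higher genes included the complement gene C4b, the growth factor binding protein gene Igfbp5 and the lipopolysaccharide-binding protein gene Lbp. Among the lower genes were Timm8b and Cycs of mitochondria, the translation factor gene Eif4e and the chaperonin gene Cct3. Since the cells were chosen on a measured gene, these genes describe the split and were not tested.

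How many genes were set apart depended on which cells were used. Groups of fewer cells are separated more easily by construction, and the counts of higher and lower genes became 144 and 69 without cell 2, 146 and 67 without cell 7, and 176 and 68 without cell 9. Leaving out Lepr-low cell 1 gave 63 and 42, while leaving out cell 3 gave 48 and 47 and leaving out cell 8 gave 49 and 48. Without cells 11 and 14 they were 62 and 50. A Lepr threshold of 3, which moved cells 1 and 11 to the high side, left 8 and 14, of which Cygb and Timm8b alone were shared with the main lists. With no cell removed on Ifitm5 the counts were 15 and 8.

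**Figure D2:**
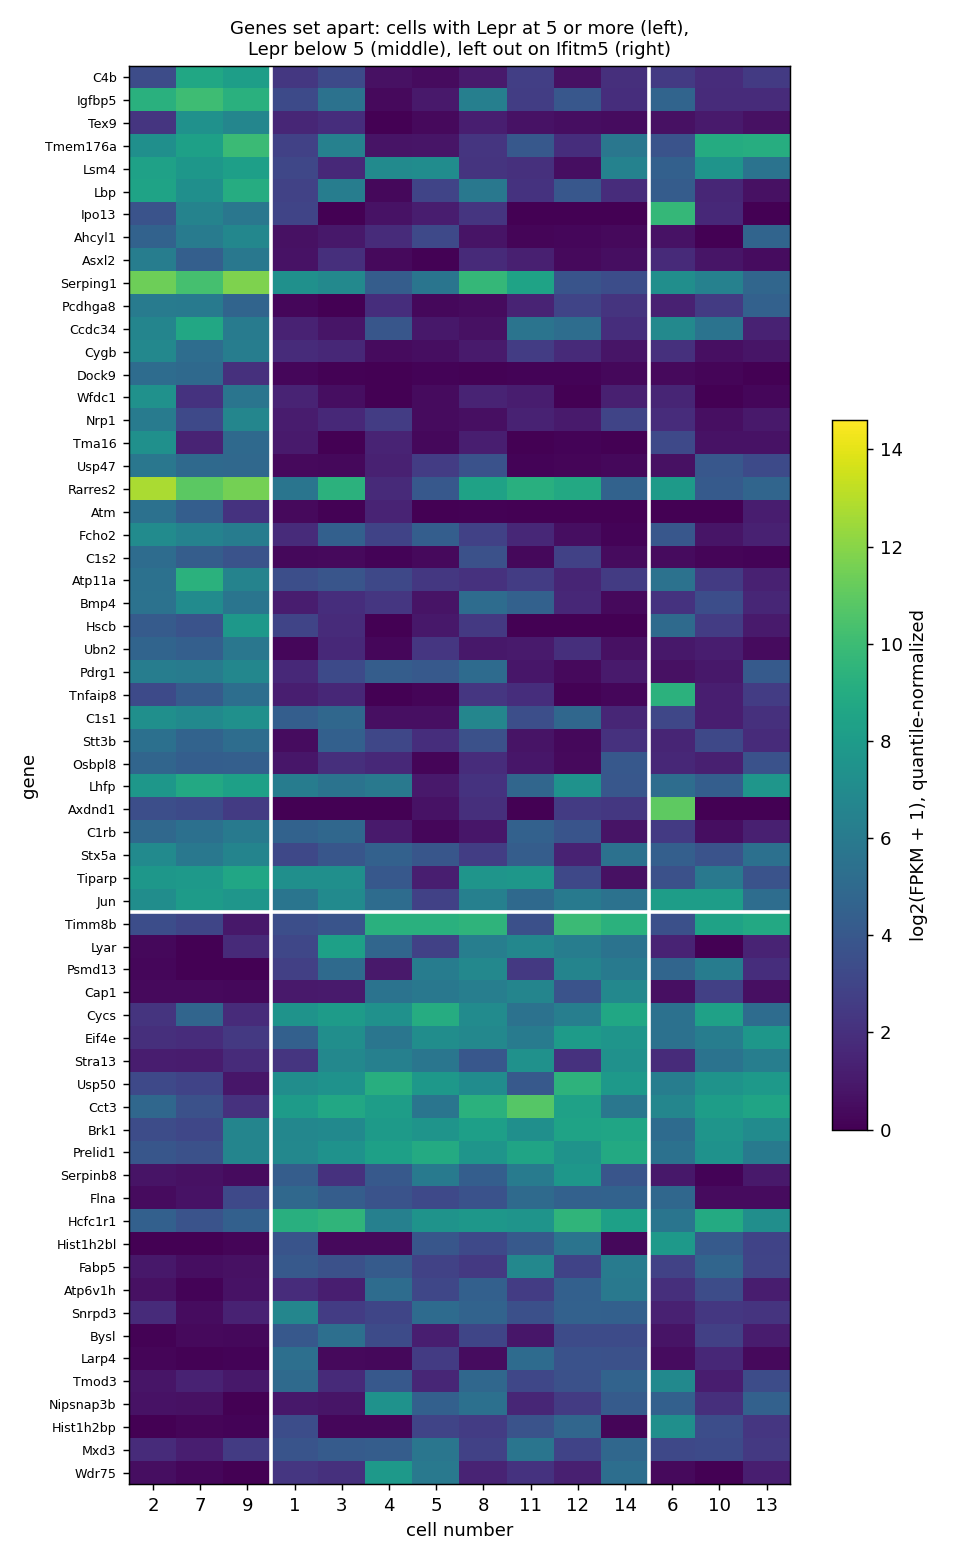
Level of each gene set apart (rows) in each cell (columns), with colour giving the value on the log2 scale of the deposited table. The upper block holds 37 of the 38 genes higher in the Lepr-high cells at the left, the lower block the 25 genes lower there, and the 3 cells left out on Ifitm5 are at the right.

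Several complement genes were among the 38 higher genes. Complement is a cascade of blood proteins that tags and lyses targets: C1r and C1s are the proteases of its first component, C4 and factor B feed the convertases, and the C1 inhibitor restrains it. C4b, on chromosome 17 at 34728380-34743882 (minus strand), stood at 3.41, 8.71 and 8.20 in cells 2, 7 and 9. In the Lepr-low cells it ran from 0.40 through a median of 1.51 to 3.28, a median difference of 6.68, or 4.29 without cell 7. Cells 7 and 9 were far above all others, whereas cell 2 cleared the highest Lepr-low cell, cell 3, by little. C4a, a near copy named here after its values were seen, stood at 1.41, 6.88 and 7.44 in cells 2, 7 and 9 and at up to 1.93 in the Lepr-low cells, so cell 2 was not above them. Of the 50-base words of C4b transcripts, 34.6% also occur in C4a, so the division of reads between these genes is uncertain.

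Serping1, the C1 inhibitor gene on chromosome 2 at 84765387-84775444 (minus strand), stood at 11.38, 10.29 and 11.79 in cells 2, 7 and 9. The Lepr-low range was 3.47 to 9.74 with a median of 6.27, and cell 8 came closest. The 3 Lepr-high cells were thus more alike for Serping1 than for C4b, for which cell 2 stood well below the others.

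The proteases of the first component come from neighbouring genes. C1ra, C1s1, C1rb and C1s2 lie within 123.7 kb of chromosome 6, at 124512405-124636085 (GRCm38). C1s1 stood at 7.27, 6.92 and 7.31 in cells 2, 7 and 9, and at 0.61 to 6.70 in the Lepr-low cells, with a median of 3.93. Among these genes, C1s2 and C1rb are named here after their values were seen. C1s2 stood at 5.18, 4.31 and 3.75 in the 3 cells and C1rb at 4.91, 5.37 and 5.98. The highest Lepr-low cells reached 3.62 for C1s2 and 4.90 for C1rb, so both genes were set apart by narrow gaps. The call of C1rb was lost without any of Lepr-low cells 4, 5, 8 or 14, at a median difference of 1.60 in place of 2.95. C1ra was not, at 5.40, 5.77 and 7.08 against up to 5.60 in cell 1, although its medians differed by 2.52. These genes are near copies: 59.2% of the 50-base words of C1rb occur in C1ra and 26.9% of those of C1s2 in C1s1, so their separate levels are uncertain.

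The promoters of the neighbours that were set apart together are shown because they let a reader compare the start regions of genes whose levels went in the same direction. They are windows of 300 bases that reach from upstream of a start to shortly after it, from RefSeq (GRCm38.p6), and capitals mark TTCNNNGAA, the palindrome bound by Stat proteins, searched on both strands. C1rb lies at chr6:124570180-124570479 on the plus strand, C1s1 at chr6:124542272-124542571 and C1s2 at chr6:124636036-124636335, both on the minus strand.
C1rb: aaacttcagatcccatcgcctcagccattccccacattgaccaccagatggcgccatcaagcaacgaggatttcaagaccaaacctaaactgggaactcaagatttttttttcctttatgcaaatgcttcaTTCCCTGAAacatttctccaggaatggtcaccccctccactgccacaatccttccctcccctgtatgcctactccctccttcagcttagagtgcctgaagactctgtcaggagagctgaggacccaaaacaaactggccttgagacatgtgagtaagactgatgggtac
C1s1: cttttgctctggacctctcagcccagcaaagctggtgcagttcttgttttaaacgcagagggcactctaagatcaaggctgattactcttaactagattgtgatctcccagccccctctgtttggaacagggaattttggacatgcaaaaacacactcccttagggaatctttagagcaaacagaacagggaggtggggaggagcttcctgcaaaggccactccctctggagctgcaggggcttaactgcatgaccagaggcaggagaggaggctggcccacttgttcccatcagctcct
C1s2: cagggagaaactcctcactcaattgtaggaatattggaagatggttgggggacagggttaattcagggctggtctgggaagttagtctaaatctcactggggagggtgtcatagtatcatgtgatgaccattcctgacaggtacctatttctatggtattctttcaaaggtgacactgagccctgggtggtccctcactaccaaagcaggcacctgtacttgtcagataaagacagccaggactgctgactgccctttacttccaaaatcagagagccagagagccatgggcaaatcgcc
The C1rb window holds the motif, and those letters are not in the windows shown for C1s1 and C1s2. Over the higher genes, 26 of the 38 matched the table, and 1 of their 33 promoters (3.03%) held the motif, against 8.3% of all 32851 promoters of that length. For the lower genes it was 3 of 20 promoters. A match of letters is a description only.

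Other complement genes overlapped between the groups. Cfb, the gene of factor B, stood at 7.54, 3.62 and 9.86 in cells 2, 7 and 9, and its Lepr-low range was 0.70 to 3.85 and a median of 2.32. Cell 7 lay inside that range, so the median difference of 5.22 rests on cells 2 and 9. Cfb shares 2246 exon bases with Gm20547 on the same strand, so which gene the level is of is uncertain. C3, the central component, had medians of 4.19 and 4.28, and C2 of 1.03 and 1.45, so neither was higher in the Lepr-high cells.

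**Figure D3:**
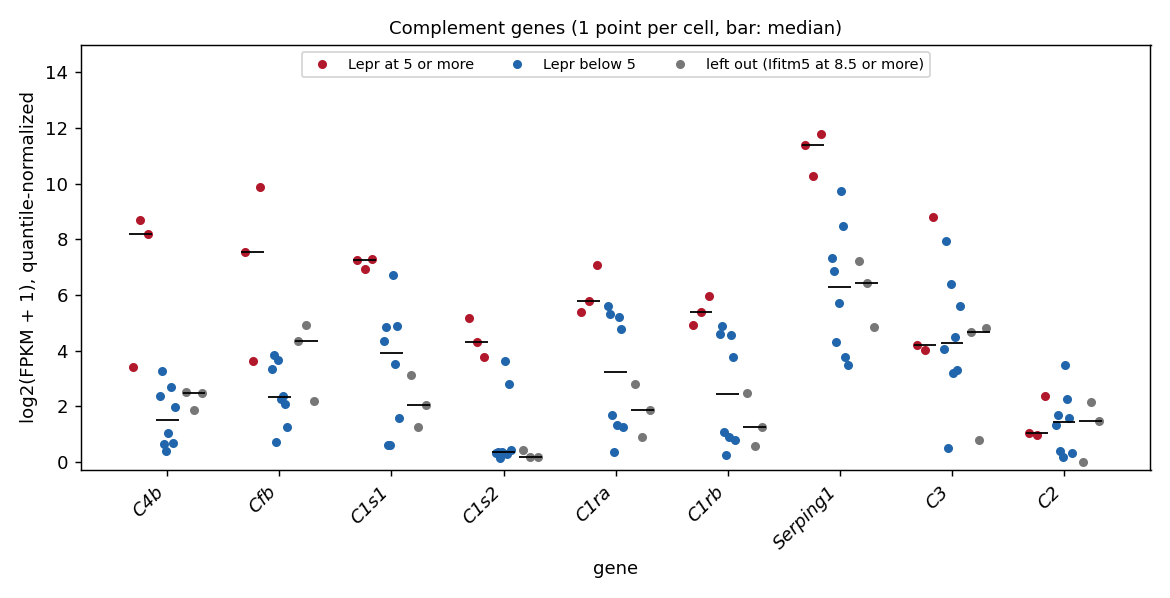
Complement genes (x axis) by level on the log2 scale of the deposited table (y axis), with 1 point per cell and a bar at each group's median. Every Lepr-high point lies above every Lepr-low point for C4b, C1s1, C1s2, C1rb and Serping1, and the points mix for Cfb, C1ra, C3 and C2.

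Chemokine genes listed with complement showed no common direction. Ccl7, an attractant of monocytes, stood at 9.48, 3.82 and 9.29 in cells 2, 7 and 9, and Lepr-low cell 3 was higher still at 10.19. Cxcl2, a neutrophil attractant, was lower by median, with a difference of -2.99, and its Lepr-low cells ran from 1.89 to 13.22. Over the 16 listed complement and chemokine genes, 3 were set apart higher and none lower, against 0.524% and 0.344% of the 7258 genes. Of the 16, 6 had a median higher by 2 or more and 1 lower by as much, against 9.19% and 6.9% of all 9541 genes. Among genes with a mean of at least 3 over the 11 cells, which holds 11 of the 16, the shares were 14.4% and 18.7%. The median difference over the list was 0.57, against 0.00 over all genes, and it was 2.43 without cell 2, 2.97 without cell 7 and -0.01 without cell 9. Leaving out Lepr-low cells 1, 3, 8 or 11 gave 0.87, 0.87, 0.32 and 0.85. The mean of the list ran from 4.26 to 7.14 in the Lepr-high cells and from 2.28 to 6.39 in the Lepr-low cells. Cells 4 and 5 were the lowest at 2.28 and 3.27, and were also the lowest for 22 immediate early and stress genes, at 2.73 and 3.90. Without these cells, a choice made after seeing the data, 52 genes were set apart higher, 35 of them among the 38, and 42 lower.

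Lbp, whose protein hands bacterial lipopolysaccharide to its receptor, lies on chromosome 2 at 158306493-158332852 (plus strand). It stood at 8.48, 7.28 and 9.06 in cells 2, 7 and 9. In the Lepr-low cells Lbp ran from 0.32 through a median of 2.91 to 6.18, and the gap between the groups was over 1 unit. Rarres2, on chromosome 6 at 48569696-48572789 (minus strand), codes for chemerin, a chemoattractant and adipokine. Its levels were 12.77, 10.92 and 11.55 in the 3 cells against 1.73 to 9.39 in the Lepr-low cells, with a median difference of 4.51. Rarres2 shares 892 exon bases with Lrrc61, and Wfdc1, a secreted protein with a whey acidic protein domain, was the most uneven of these genes at 7.39, 2.13 and 5.65 against at most 1.46.

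Of the 28 niche factor genes with a value, 2 were set apart higher and none lower, against 0.524% and 0.344% of all genes. Igfbp5, which binds insulin-like growth factors and is abundant in bone, lies on chromosome 1 at 72857932-72874884 (minus strand). It stood at 9.26, 10.07 and 9.28 in cells 2, 7 and 9. The Lepr-low cells had Igfbp5 at 0.35 to 6.31 with a median of 2.97, so the gap between the groups was close to 3 units. Bmp4, a bone morphogenetic protein on chromosome 14 at 46383520-46390669 (minus strand), stood at 5.52, 7.03 and 5.69. Its Lepr-low values ran from 0.35 through a median of 1.76 to 5.18 in cell 8, close below cell 2.

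The other niche genes with a high median overlapped between the groups, since a single Lepr-low cell was as high or a single Lepr-high cell was low. Fgf7, a growth factor for epithelium, stood at 8.32 in cell 2 and 8.60 in cell 9 but at 1.24 in cell 7, and Lepr-low cell 3 had 7.61. Igf1, insulin-like growth factor, stood at 10.28 in cell 7 and 7.11 in cell 9 but at 2.48 in cell 2, and cell 1 had 9.74. Jag1, a Notch ligand, was at 4.85 and 4.58 in cells 2 and 9 and at 0.14 in cell 7. Cell 7 was thus the low cell for Fgf7 and Jag1, and cell 2 for Igf1. Igfbp4 stood at 8.40, 4.98 and 7.32, with cell 7 below the 5.62 of Lepr-low cell 12. Il6 stood at 6.84, 3.78 and 9.80, and the highest cell of all was Lepr-low cell 11 at 10.02.

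For several other niche genes the medians of the groups differed by less than 1 unit. Kitl, the ligand of the stem cell receptor Kit, stood at 1.21, 1.71 and 4.43 in cells 2, 7 and 9, and the highest value was 6.74 in Lepr-low cell 1. Vcam1, an adhesion molecule, was at 1.83, 2.21 and 6.78, and Lepr-low cells 1, 3 and 12 had 5.68 to 5.88. Csf1 and Il7, growth factors of macrophages and lymphocytes, stood at 5.42 and 5.5 in cell 9 but at no more than 1.97 in cells 2 and 7. Cell 9, the cell with the least Lepr of the 3, was thus the one in which Cxcl12, Kitl, Vcam1, Csf1 and Il7 were all highest among the Lepr-high cells. Pdgfra, a receptor used to mark mesenchymal cells, was also highest in cell 9, at 1.48, 4.58 and 6.23. The genes named for cell 9 were chosen after their values were seen. Other niche genes were highest elsewhere among the Lepr-high cells, with Igfbp5, Bmp4 and Igf1 in cell 7 and Igfbp4 and Jag1 in cell 2. Over the 28 niche genes, 10 had a median higher by 2 or more and none lower by as much, against 9.19% and 6.9% of all genes. The median difference over the list was 0.66, and 1.88, 1.75 and 1.29 without cells 2, 7 and 9. Between the 3 Lepr-high cells, 14 of the 28 genes differed by 4 or more from the lowest to the highest cell.

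**Figure D4:**
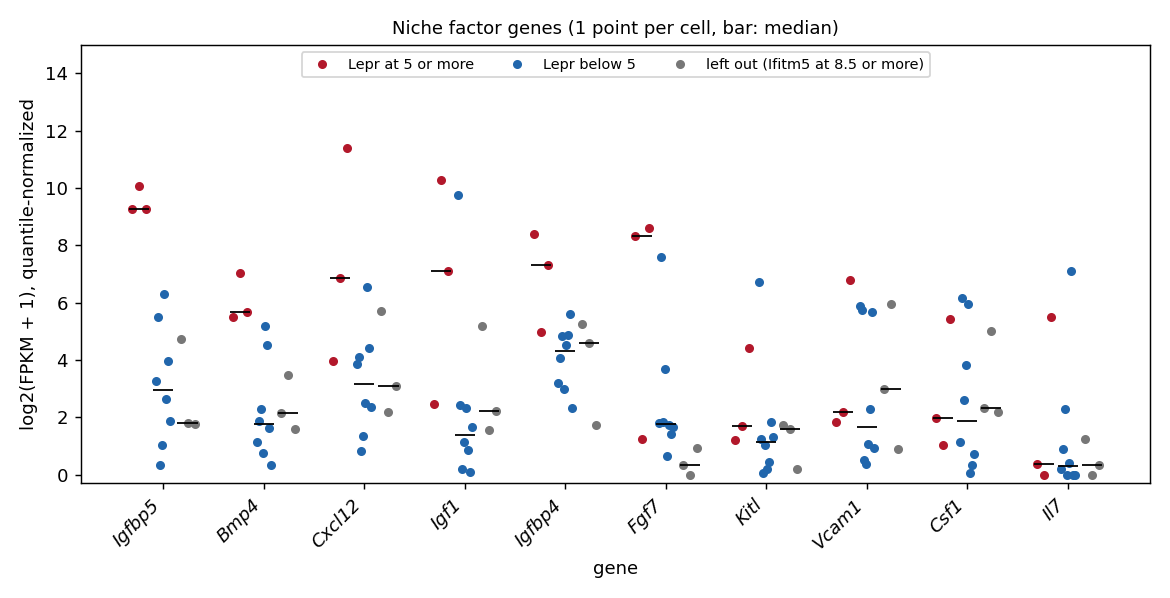
Niche factor genes (x axis) by level on the log2 scale of the deposited table (y axis), with 1 point per cell and a bar at each group's median. Igfbp5 and Bmp4 have every Lepr-high point above every Lepr-low point, and for the other genes shown the points overlap.

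None of the 25 listed genes of leptin receptor signalling was set apart, against 0.524% and 0.344% of all genes, so this was near that share. Of the 25, 5 had a median higher by 2 or more and 2 lower by as much, against 9.19% and 6.9% of all genes. The list's median difference was 0.44 (1.13 without cell 2, 1.03 without cell 7 and 0.88 without cell 9). Socs3, the feedback inhibitor, stood at 6.42, 5.51 and 6.46 in cells 2, 7 and 9, and Lepr-low cells 8 and 11 reached 5.60 and 7.22. Stat3, the main transcription factor of the pathway, was at 5.72, 5.83 and 6.51, inside a Lepr-low range of 0.66 to 8.42. Both genes were thus steady over the Lepr-high cells, with some Lepr-low cells as high. Jak2, the kinase bound to the receptor, stood at 0.27, 1.77 and 0.26, and its Lepr-low median was 3.11. Leprot, another listed gene, was at 7.24, 6.30 and 1.08, and at up to 7.30 in the Lepr-low cells. Irs2, an adaptor of insulin signalling, stood at 2.98, 3.24 and 3.33. Its Lepr-low median was 1.13, and Lepr-low cells 1, 8 and 11 were higher at 3.56 to 5.23.

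Transcription factor genes of reticular stroma gave no gene set apart among 27, near the 0.524% and 0.344% of all genes. Their median difference was 0.15, or 1.04 without cell 2, 0.62 without cell 9 and 0.34 without any of Lepr-low cells 1, 5 or 12. Ebf1, needed for the reticular cell programme, stood at 6.56, 5.40 and 5.93 in cells 2, 7 and 9 and had nearly the same median in the Lepr-low cells, 5.82. Ebf2 was at 6.93 and 4.19 in cells 2 and 9 and at 0.73 in cell 7. Foxc1, a regulator of the Cxcl12-abundant state, was at 0.00 to 0.35 in the Lepr-high cells and at 3.16 to 5.46 in Lepr-low cells 1, 11 and 12. Of the genes the line is built on, Prrx1 stood at 0.61, 4.26 and 5.06. Meox2, a homeobox gene, stood at 7.31 and 4.92 in cells 7 and 9 and at 0.68 in cell 2. Osr2, a zinc finger gene of limb mesenchyme, was at 0.28 and 0.00 in cells 2 and 9 and at 4.99 in cell 7, against a Lepr-low median of 5.19. In all, 8 of the 27 had a median higher by 2 or more and 3 lower, against 9.19% and 6.9% of all genes.

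Adipogenic genes were split in the same way. Fabp5, a fatty acid carrier, was set apart lower, at 0.93, 0.57 and 0.65 in cells 2, 7 and 9 against 2.42 to 6.84 in the Lepr-low cells. Its relative Fabp4 was not, at 5.33, 6.89 and 2.78 against a median of 6.66. Gpx3, a secreted peroxidase, was even over the 3 cells at 10.57, 9.58 and 10.52, and Lepr-low cells 1, 3 and 12 were higher at 11.14 to 14.58. Cebpd, an early adipogenic factor, stood at 6.84, 7.31 and 5.89, with a Lepr-low range of 0.84 to 9.16. Cebpa, the later factor, was at 0.00 in cells 2 and 9 and 4.32 in cell 7, and Plin1, the lipid droplet coat gene, at 3.10 in cell 2 and 1.12 or less in the others. Lpl, lipoprotein lipase, stood at 7.01 in cell 2 and at 2.91 or less in the others, while Lepr-low cell 1 had 6.12. Of the 23 listed genes, 5 had a median higher by 2 or more and 1 lower, against 9.19% and 6.9% of all genes, and the median difference was 0.07, or 0.84 without cell 2 and 1.06 without cell 7.

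Fibroblast genes were the lists with the largest median difference. Of 26 periosteal and adventitial fibroblast genes, 12 had a median higher by 2 or more and none lower, against 9.19% and 6.9% of all genes, or 14.4% and 18.7% of those with a mean of at least 3. In this list 1 gene was set apart (0.524% of all genes), and the median difference was 1.64. Their mean ran from 5.14 to 6.01 in the Lepr-high cells and from 2.55 to 5.06 in the Lepr-low cells, so the ranges did not overlap, although cell 9 and Lepr-low cell 3 were nearly equal. The gene set apart was Cygb, cytoglobin, on chromosome 11 at 116645595-116654313 (minus strand), at 6.82, 5.23 and 6.21 against 0.40 to 2.59. Cygb shares 201 exon bases with Prcd. It was the higher gene that was also met with the Lepr threshold at 3.

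Some members of these lists are given as examples chosen after their values were seen. Ogn, a small leucine-rich proteoglycan, stood at 10.39, 8.71 and 9.62 in cells 2, 7 and 9, and only Lepr-low cell 1, at 9.64, came above 2 of them. Itm2a, a membrane protein gene, stood at 7.21, 6.81 and 7.03, with Lepr-low cells 1 and 3 higher at 7.55 and 7.59 and the other Lepr-low cells at 2.37 or less. Fbln2, a matrix glycoprotein, was at 7.48, 7.47 and 8.26, and Lepr-low cells 3 and 4 were as high. For these genes the Lepr-high cells were close to each other and 1 or 2 Lepr-low cells were like them. Mgp, an inhibitor of calcification, stood at 10.86, 13.56 and 14.58, with a Lepr-low median of 8.0 and up to 12.96.

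Of 44 fibroblast matrix genes, 18 had a median higher by 2 or more and 1 lower, with a median difference of 1.62, or 1.03 without Lepr-low cell 14. Their mean was 5.97 to 6.82 in the Lepr-high cells, and the highest cell of all was Lepr-low cell 1 at 6.99. Dcn, the proteoglycan decorin, was at or near the top of the scale in the Lepr-high cells, at 14.58, 14.58 and 13.82. The gene lower by 2 or more was Fn1, fibronectin, at 5.31, 10.16 and 3.08 against a Lepr-low median of 9.35. Among genes with a mean of at least 3 over the 11 cells, which holds 38 of these 44, 14.4% of all had a median higher by 2 or more and 18.7% lower.

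**Figure D5:**
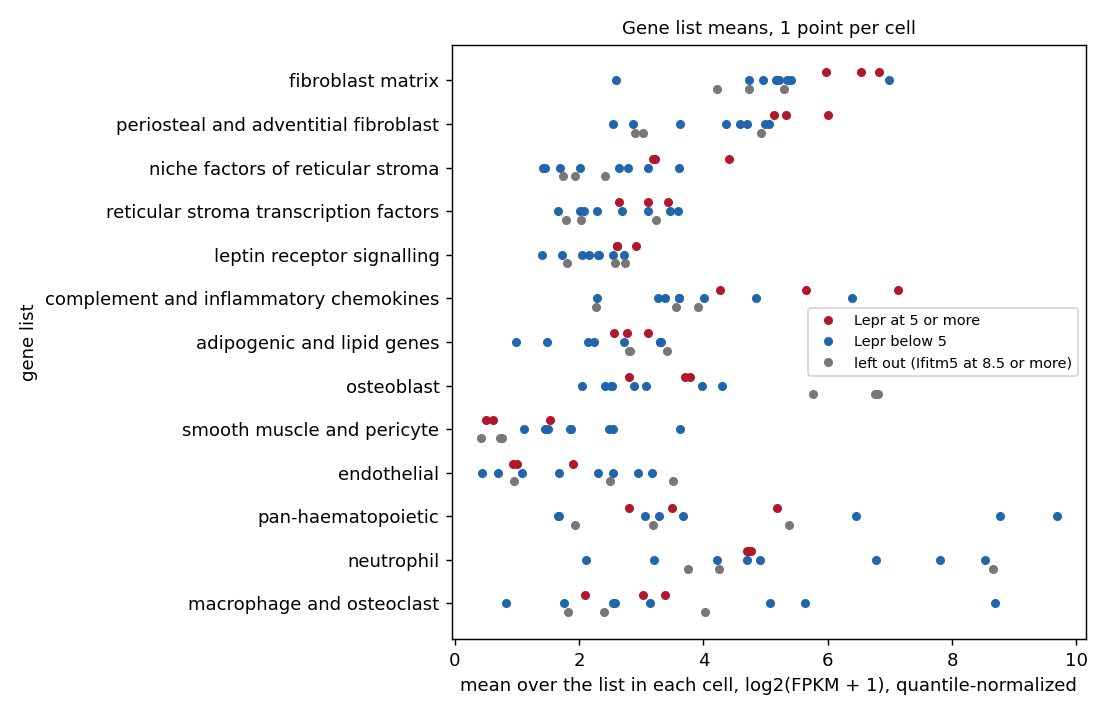
Mean over each gene list (rows) in each cell, on the log2 scale of the deposited table (x axis), with 1 point per cell. The Lepr-high points lie to the right of every Lepr-low point for the periosteal and adventitial list, at 5.14 or more against at most 5.06, and overlap them for the other lists shown.

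Markers of other cell types gave no gene set apart higher, against 0.524% of all genes. The lists were short, with 5 smooth muscle and pericyte, 5 endothelial and 9 osteoblast genes passing the filter, so this was near that share. Smooth muscle and pericyte genes had a mean of 0.50 to 1.53 in the Lepr-high cells and 1.11 to 3.63 in the Lepr-low cells. Acta2, smooth muscle actin, stood at 0.06 to 0.72 in the Lepr-high cells. Endothelial genes had a mean of 0.94 to 1.91 against 0.44 to 3.18. Osteoblast genes had a mean of 2.81 to 3.78, within the Lepr-low range of 2.05 to 4.31 and under the 5.77 to 6.81 of the cells left out on Ifitm5, with a median difference of 0.75 over 15 genes, or 0.16 without cell 7 and 0.07 without cell 9. Single members stood high in 1 of the 3 cells, chosen after their values were seen: Phex and Sp7 at 5.73 and 3.21 in cell 9, and Alpl at 5.00 in cell 7, against Lepr-low maxima of 0.68, 0.45 and 0.89. Runx2, the osteoblast transcription factor, was at 0.05 to 0.13 in all 3. Neutrophil genes had a mean of 4.71 to 4.76 in the Lepr-high cells, within the Lepr-low range of 2.11 to 8.52, and macrophage and osteoclast genes 2.09 to 3.39 within 0.82 to 8.69. Neither list gave a gene set apart, with 9 neutrophil and 6 macrophage and osteoclast genes passing the filter, near the 0.524% and 0.344% of all genes.

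None of the 23 listed receptor genes was set apart, against 0.524% and 0.344% of all genes, so this was near that share. Of the 23, 8 had a median higher by 2 or more and none lower by as much, against 9.19% and 6.9% of all genes. The median difference over the receptor list was 0.69. Ghr, the growth hormone receptor, stood at 2.81, 6.63 and 7.24 in cells 2, 7 and 9, and Lepr-low cell 11 had 7.11. Osmr, the oncostatin M receptor, was at 5.75, 4.87 and 6.05, with Lepr-low cells 3 and 11 as high at 5.74 and 5.99. Hes1, a Notch target, was at 9.17, 8.36 and 4.40, with Lepr-low cells 1 and 8 as high at 9.77 and 9.17. Nrp1, the co-receptor of semaphorins and vascular growth factor and a gene outside these lists, was set apart higher: it stood at 6.05, 3.24 and 6.71 against 0.44 to 3.02, and lies on chromosome 8 at 128358604-128503363 (plus strand). The mean over 31 genes of the BMP and TGF-beta pathways was 2.60 to 3.21 in the Lepr-high and 1.12 to 2.51 in the Lepr-low cells. Of these 31 genes, 1 (Bmp4) was set apart higher, and 4 had a median higher by 2 or more and none lower, near the 9.19% of all genes. Their median difference was 0.54, or 1.27 without cell 2, 1.26 without cell 7 and 1.21 without cell 9. The mean over 10 Hedgehog and Notch genes was 2.31 to 2.90 in the Lepr-high and 0.48 to 2.01 in the Lepr-low cells. None of the 10 was set apart and 3 were higher by 2 or more, against 0.524% set apart higher and 9.19% higher by 2 or more of all genes. Their median difference was 0.63, or 1.89, 1.63 and 1.83 without cells 2, 7 and 9 and 0.98 without Lepr-low cell 3.

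Immediate early genes, which dissociation of tissue can induce, also differed between cells. Jun was set apart higher, at 7.15, 8.03 and 7.65 against 2.84 to 6.97. Its median difference of 2.07 was close to the limit of 2, and the call was lost without cell 7 and without cells 11 and 14 or 4 and 5, at 1.81 each time. Fos, its partner, was not, at 8.36, 12.01 and 10.71 against 5.42 to 12.77. The mean over the 22 listed genes was 5.54 to 6.35 in the Lepr-high cells and 2.73 to 6.41 in the Lepr-low cells. Their part in the other differences was not tested.

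The other higher genes with the largest differences have no shared textbook role. Tmem176a, a membrane protein gene, stood at 7.25, 8.31 and 9.93 in cells 2, 7 and 9 against at most 6.43, and it reached 8.98 and 9.12 in cells 10 and 13, which were left out on Ifitm5. Asxl2, a chromatin regulator, stood at 6.21, 4.42 and 5.87 against at most 1.94. Usp47, a deubiquitinase, stood at 5.80, 5.01 and 4.93 against at most 3.70. Usp47 was the most even of these over the 3 cells, and Tmem176a the least. Dock9, an activator of Cdc42, was at 5.13, 5.01 and 2.04, and was the gene below 1 in every Lepr-low cell, at most 0.30. It no longer passed the filter on low values without cell 2, 7 or 9. Tex9 was at 2.25, 7.38 and 6.71 against at most 1.89, and shares 2842 exon bases with Mns1 on the other strand, so reads of the 2 cannot be told apart here.

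Lsm4, a component of the splicing machinery, stood at 8.34, 7.71 and 8.24, with Lepr-low cells 4, 5 and 14 close at 6.46 to 7.07 and the other Lepr-low cells at 3.09 or less. Ipo13, a nuclear import receptor, Ahcyl1, a regulator of calcium release, Ccdc34, Tma16 and Pcdhga8 were also among the 20 largest, with median differences of 5.45, 5.36, 4.99, 4.78 and 5.10, and that of Tma16 was 3.02 without cell 2. The identifier of the row named Pcdhga8 belongs to Pcdhgc4 in the GENCODE annotation, and the genes of this protocadherin cluster share exons, so which gene the level is of is uncertain. Of the 38 higher genes, 18 stood at 5 or more in all 3 Lepr-high cells. The lowest of the 3 cells was cell 7 for 17 genes, cell 2 for 13 and cell 9 for 8. Cell 3 was the nearest Lepr-low cell for 11 of them.

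Timm8b had the largest difference among the lower genes. It codes for a chaperone of the mitochondrial intermembrane space, lies on chromosome 9 at 50603910-50605320 (plus strand) and stood at 3.48, 3.04 and 0.93 in cells 2, 7 and 9. Lepr-low cells 1, 3 and 11 were close above at 3.53 to 3.78 and the other 5 stood at 9.26 to 9.94, so a median difference of -6.24 went with nearly touching groups. Cycs, cytochrome c, on chromosome 6 at 50562563-50566538 (minus strand), stood at 2.20, 4.74 and 1.79 against 5.5 to 9.06. Prelid1, a mitochondrial lipid carrier, was at 3.89, 3.63 and 6.63 against 6.81 to 8.90, with cell 9 nearly level with Lepr-low cell 1. Prelid1 shares 1258 exon bases with Rab24 and 105 with Mxd3, also set apart lower, both on the other strand, so its level is uncertain.

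Eif4e, the cap-binding factor of translation, on chromosome 3 at 138526179-138559696 (plus strand), stood at 1.99, 1.86 and 2.43 in cells 2, 7 and 9. The lowest Lepr-low cell was cell 1 at 4.45 and the median 6.98, so Eif4e was evenly low and the gap was about 2 units. Cct3, a subunit of the cytosolic chaperonin, stood at 4.90, 3.64 and 2.08 against 5.67 to 10.75. Psmd13, a subunit of the proteasome lid, was at 0.24, 0.00 and 0.00 against 0.98 to 6.82. Lyar, a nucleolar protein gene, was at 0.33, 0.00 and 1.75 against 2.81 to 8.30. Housekeeping genes as a list had a median difference of -0.35, with 2 of 11 lower by 2 or more and none higher. None of the 11 was set apart, against 0.524% higher and 0.344% lower of all genes. Of all genes 6.9% were lower and 9.19% higher by as much. Among genes with a mean of at least 3, which holds 10 of these 11, it was 18.7% and 14.4%, so the lower count was near that share. The list's median difference was -1.05 without cell 7, 0.13 without cell 9 and -0.23 without any of Lepr-low cells 4, 5, 8 or 12.

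Cap1, which recycles actin monomers, stood at 0.36, 0.35 and 0.32 in cells 2, 7 and 9, against 1.02 to 6.80 in the Lepr-low cells. Brk1, a subunit of the WAVE complex, was at 3.39, 3.14 and 6.67, with cell 9 close under the lowest Lepr-low cell at 6.78. Flna, the actin crosslinker filamin A, was at 0.45, 0.74 and 3.21, and Lepr-low cell 5 was equal to cell 9 at the digits shown. Cells left out on Ifitm5 also had low Cap1, at 0.58 in cell 6 and 0.59 in cell 13. The histone gene Hist1h2bl stood at 0.00, 0.00 and 0.19 against 0.29 to 5.64, and shares 53.0% of its 50-base words with Hist1h2bp, so it is uncertain. Stra13, Usp50, Hcfc1r1 and Serpinb8 complete the 15 largest, with median differences of -4.86, -4.65, -3.52 and -3.68. Of the 25 lower genes, 11 were below 1 in all 3 Lepr-high cells and 5 stood at 5 or more in all 8 Lepr-low cells.

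The 3 cells left out on Ifitm5 had no part in choosing these genes, but the Lepr-low cells they are compared with did. Higher genes were picked as low in the Lepr-low cells, and lower genes as high there. A cell from outside can thus lie above or below them more often than over all genes, whatever its Lepr. The share of all genes is therefore not a matched background, and the part of this choice in the values below was not tested. Cell 6, whose Lepr was 6.37, lay above the Lepr-low median in 31 of the 38 higher genes (81.6%), against 47.3% of all 7258 genes. Cells 10 and 13, with Lepr at 4.04 and 2.55, did so in 20 (52.6%) and 16 (42.1%), against 45.7% and 44.8% of all. Cell 6 lay above every Lepr-low cell in 10 of the 38 (26.3%, against 14.1% of all genes). Cell 10 did so in 5 (13.2%, against 9.48%) and cell 13 in 6 (15.8%, against 8.85%), so all 3 cells were above their share of all genes. For the 25 lower genes, cells 6, 10 and 13 lay below the Lepr-low median in 20, 19 and 20, against 51.4%, 52.9% and 53.9% of all genes, so these cells did not differ there in the order of Lepr.

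Over the whole profile the Lepr-high cells were not a tight group. Spearman's correlation over genes was 0.52 to 0.60 for the 3 pairs of Lepr-high cells, with a median of 0.54. It was 0.42 to 0.61 for the 24 pairs of a Lepr-high with a Lepr-low cell, with a median of 0.49, and 0.38 to 0.62 for the 28 pairs of Lepr-low cells, with a median of 0.47. The points are genes, which are not independent, and all cells share 1 value distribution.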

How the data were processed

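Polyadenylated RNA of 14 single Tomato-positive cells was sequenced after SMART-Seq v4 3' and Nextera XT library preparation, per the labels' protocols. TopHat2, Cufflinks and GRCm38 are named, without versions, in the submitters' processing notes. The authors deposited 1 table of 9558 rows, on a log2 scale and named for FPKM. That the values are log2(FPKM + 1) and were quantile-normalized is read from the values, since neither the labels nor the file header record it: all 14 columns have the same maximum, 14.58, and back-transformed sums of 642630 to 646213. A difference between cells is thus a difference in rank within the cell, and it understates the change of low genes. Since a 3' kit was combined with a length-scaled unit, levels were not compared between genes. Repeated symbols were reduced to 9542 distinct symbols. No aligner setting, strand rule or counting rule is given in the sources used here.

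Cells were split by the rule stated in the report (Ifitm5 at 8.5 or more left out, then Lepr at 5), and medians, ranges and gene counts were computed with Python 3.11.15, pandas 2.3.3, NumPy 2.4.6 and SciPy 1.17.1. The procedure was checked on simulated data. The 20 genes set apart higher and the 15 lower with the largest median difference were named, without ribosomal, predicted and small RNA genes, together with every listed gene set apart and examples from the niche, transcription factor, leptin and adipogenic lists. The rule also took 1 gene set apart higher that is not reported here, although the counts include it. Of 505 distinct genes in 27 lists, 390 had a value, and the 8 genes of T and NK cells were not analysed here. The cells, lists and rules were chosen with earlier results of these data known. No p-value was computed, because the labels name 1 group and no animal. Gene positions and transcript words are from the GENCODE annotation of GRCm38, and promoters are from RefSeq. Alternatives were the mean, no filter, a pseudocount of 10, other size and Lepr thresholds, keeping the cells high in Ifitm5, and leaving out cells.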

Additional observations from a re-analysis of the deposited data

Results flagged for a closer look

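Of 66 values looked at for a cell far from the others, 1 was found. In the 8 Lepr-low cells, Usp50, a gene set apart lower in the Lepr-high cells, stood at 4.05 in cell 11, while the other 7 cells had 7.12 to 9.43. Chance marks about 1 in 20 groups of this kind.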

How the results depend on the processing

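No paired analysis was possible because the labels give 1 group, whose cell numbers pair nothing. Counts of genes set apart higher and lower moved from 38 and 25 to 8 and 14 with a Lepr threshold of 3, to 146 and 55 with a threshold of 7, to 15 and 8 with no cell removed on Ifitm5, to 62 and 50 without cells 11 and 14, and to 104 and 111 against the Lepr-low cells of the same set by genes at 0. A pseudocount of 10 left 12 lower genes, and leaving out cells 4 and 5 gave 42, an alternative chosen after seeing the data. Over the cells left out in turn, the higher count ran from 41 to 176 and the lower from 29 to 69.

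The median difference of Cxcl12 was 1.56 with a threshold of 7. For the Hedgehog and Notch list the main value of 0.63 became 1.40 by means, 0.081 with the pseudocount of 10 and 1.78 with a threshold of 7. The receptor list had 0.10 with the pseudocount, the endothelial list 0.29 with a threshold of 3, the BMP and TGF-beta list 1.22 with a threshold of 7, and the periosteal list 2.65 against the same set by genes at 0. Over the cells left out in turn, Cxcl12 ran from 2.24 to 5.95, niche factors from 0.68 to 1.88, transcription factors from 0.066 to 1.04, leptin signalling from 0.32 to 1.13, adipogenic genes from 0.067 to 1.06, BMP and TGF-beta from 0.47 to 1.27, Wnt from 0.20 to 0.94, Hedgehog and Notch from 0.61 to 1.89, receptors from 0.60 to 1.56, complement and chemokines from -0.0084 to 2.97, interferon genes from -0.12 to 1.11, and housekeeping genes from -1.05 to 0.13. The cause of these changes was not tested, and the number of cells also sets how easily groups separate. In all, 22 of 44 counts, 86 of 760 gene differences and 27 of 494 list medians moved by more than their limit. Depth is unknown, so the counting error of low values cannot be given.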
